A study of Mus musculus with 4 samples.

Results

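The genes described here are 4 genes of the interleukin-6 (IL-6) cytokine pathway (Il6, Lif, Il11 and Socs3) and 6 acute-phase genes (Saa1, Saa2, Saa3, Lcn2, Hp and C3). They were taken by symbol, 10 of the 22691 genes in the table, and were chosen with the difference between the genotypes already in view. Polyadenylated RNA of fibroblast cultures from female mouse fetuses of stage E13.5 was sequenced in 4 libraries. Of these, 2 came from cultures labelled Smchd1 +/+ (WT) and 2 from cultures labelled Smchd1 MD1/MD1 (MD1). SmcHD1 is a chromatin protein needed to keep genes of the inactive X chromosome silent. All 4 libraries shared the genotype Xist deltaA/+, with the mutant X from C57BL6/J mothers, so the X of the F1 fathers, with JF1 alleles, was the inactive one. The fathers were JF1 x C57BL6/J F1 males and pass on autosomal JF1 alleles in blocks, so for autosomal genes an effect of MD1 cannot be told apart from differences in such blocks or between cultures. Smchd1 itself was at 14.7 FPKM in WT, against 1.94 in MD1.

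IL-6, LIF and IL-11 are secreted cytokines that each bind a receptor of their own and then share the signalling chain gp130, encoded by Il6st. Engaged gp130 activates Janus kinases, which phosphorylate the transcription factor STAT3, and STAT3 induces Socs3, whose product shuts the receptor off again. Acute-phase genes encode plasma or secreted proteins that the liver makes in inflammation, under IL-6, IL-1, NF-kB and C/EBP factors, and some of them are also made by fibroblasts, macrophages and fat cells.

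Expression of these autosomal genes was deposited as FPKM, a read number scaled by gene length and library size, with 1 mean per genotype and no value per library. There is therefore no spread and no test for any FPKM value below, 1 library could set a difference, and the number of reads behind a value is unknown. Fewer cells of a type and less RNA per cell cannot be told apart in such bulk samples. Values are given as FPKM in WT and MD1, as their plain ratio, and as a log2 ratio of FPKM + 1, which understates the difference of low genes. A gene counted as measured with a mean of 1 FPKM or more over both groups and a value above 0 in both, which held for 11399 genes. Of the 10 genes, 7 were measured, while Hp lay under the minimum and Saa1 and Saa2 were listed at 0.

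All 7 measured genes had the higher value in MD1, and 3 of them, Saa3, Il6 and Lcn2, were at least 2-fold higher on the log2(FPKM + 1) scale. The same bound was passed upwards by 1.39% of all measured genes and downwards by 2.81%. Since the genes were chosen on this contrast, nothing is read from that share. Their median log2 ratio was 0.74 (0.0058 over all measured genes), but Saa3, Lcn2 and C3 were under 1 FPKM in WT and passed the minimum only through MD1, so they had to be higher there. Their summed FPKM, all 10 included, was 20.5 in WT and 198.7 in MD1, and Saa3 made up 3.97% of the sum in WT and 75.6% in MD1.

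**Figure D1:**
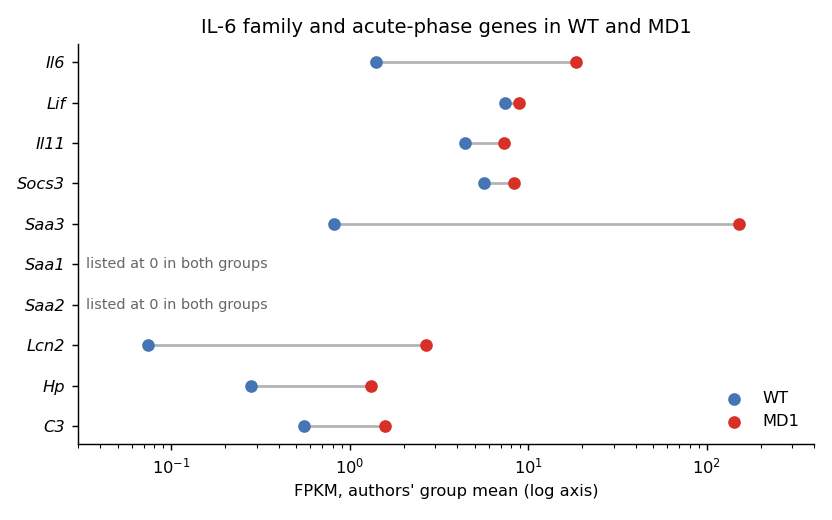
FPKM of each gene in WT (blue) and MD1 (red) on a log axis; each point is the authors' mean of 2 libraries, without error bars because no values per library were given. Saa3 spans 0.816 to 150.2 FPKM and Lcn2 0.0736 to 2.68, while Lif, at 7.36 and 8.80, has the smallest ratio of the 8 genes drawn.

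Promoter sequences from RefSeq (GRCm38.p6) could be matched for 9 of the 10 genes. The 250 bases before the start of transcription are printed for the 3 genes that were at least 2-fold higher, for C3, and for Saa1, a close relative of Saa3 that was listed at 0. Each runs 5′ to 3′ on the gene's strand, and capitals mark matches to the letters searched on both strands: GGGNNTTTC for NF-kB, TTGCNNAA for C/EBP, TGANTCA for AP-1 and TTCNNNGAA for STAT factors.
Il6 (chr5:30012864-30013113, plus strand): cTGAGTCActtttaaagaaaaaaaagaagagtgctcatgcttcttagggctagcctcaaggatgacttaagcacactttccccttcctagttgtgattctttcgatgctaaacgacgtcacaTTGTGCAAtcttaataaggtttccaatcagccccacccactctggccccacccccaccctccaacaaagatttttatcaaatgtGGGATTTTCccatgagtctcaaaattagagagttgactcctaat
Saa3 (chr7:46715677-46715926, minus strand): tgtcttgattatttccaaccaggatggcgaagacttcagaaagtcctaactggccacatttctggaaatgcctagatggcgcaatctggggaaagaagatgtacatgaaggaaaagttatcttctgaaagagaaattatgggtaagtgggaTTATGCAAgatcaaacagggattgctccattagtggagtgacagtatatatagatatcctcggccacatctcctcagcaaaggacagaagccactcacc
Lcn2 (chr2:32387740-32387989, minus strand): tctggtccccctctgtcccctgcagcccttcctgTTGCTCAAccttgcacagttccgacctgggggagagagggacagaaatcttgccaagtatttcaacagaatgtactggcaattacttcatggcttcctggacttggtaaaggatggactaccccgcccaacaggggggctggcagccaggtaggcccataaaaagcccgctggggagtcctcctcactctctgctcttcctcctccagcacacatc
C3 (chr17:57228137-57228386, minus strand): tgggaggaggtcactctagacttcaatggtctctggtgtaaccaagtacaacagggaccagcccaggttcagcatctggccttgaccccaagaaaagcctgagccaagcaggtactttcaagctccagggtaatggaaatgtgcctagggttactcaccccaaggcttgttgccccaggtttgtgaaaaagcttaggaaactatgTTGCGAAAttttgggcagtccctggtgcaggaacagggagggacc
Saa1 (chr7:46742981-46743230, minus strand): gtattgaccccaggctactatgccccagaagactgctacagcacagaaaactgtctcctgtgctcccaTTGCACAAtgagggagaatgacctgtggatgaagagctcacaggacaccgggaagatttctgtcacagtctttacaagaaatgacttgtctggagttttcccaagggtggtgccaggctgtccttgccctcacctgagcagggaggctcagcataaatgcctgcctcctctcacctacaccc

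The C/EBP letters were found in all 5 printed windows, and in 6 of the 10 windows of these genes (Il11 has 2 starts), against 9.56% of 32851 promoter windows of the same length. The windows without them, those of Lif, Socs3 and both Il11 starts, were not among the printed ones. Saa1 and Saa2 are near copies, so their windows are not separate cases. The match lay at bases -128 to -121 from the start in Il6, -99 to -92 in Saa3, -216 to -209 in Lcn2, -45 to -38 in C3 and -182 to -175 in Saa1. The Il6 window was the only one of the 10 with the NF-kB letters, at -44 to -36, which 3.72% of all windows held. It also had the AP-1 letters, as did Lif and the downstream start of Il11, against 6.75% of all windows. The STAT letters were found in Socs3 only (7.02% of all windows). The first bases after the start used for Socs3 were not found in a GENCODE transcript of the gene, so that window is uncertain. A match is a run of letters and does not show binding, and the window of Saa1 shows that the C/EBP letters were also present at a gene listed at 0.

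The cytokine genes had unlike ratios, high for Il6 and low for Lif. Il6 (chromosome 5, 30339701 to 30346508, mm9) had 1.40 FPKM in WT and 18.6 in MD1, a 13.3-fold difference and a log2 ratio of 3.03. By log2 ratio it ranked 14 of 11399 measured genes. Lif (chromosome 11, 4157571 to 4172517), which encodes leukemia inhibitory factor, had 7.36 FPKM in WT and 8.80 in MD1, or 1.19-fold. Il11 (chromosome 7, 4723980 to 4734459), the gene of a cytokine known from stromal cells and tissue fibrosis, had 4.43 and 7.26 FPKM, or 1.64-fold. By FPKM level, Il6 was the lowest of the 3 cytokine genes in WT and the highest in MD1, where it had 2.11 times the FPKM of Lif. In log2 ratio, 76.9% of measured genes lay below Lif and 94.3% below Il11.

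Socs3 (chromosome 11, 117827401 to 117830680), the feedback inhibitor of gp130 signalling, was at 5.62 FPKM in WT and at 8.31 in MD1. The 1.48-fold difference was smaller than that of Il6, with a log2 ratio of 0.49, and 91.7% of measured genes had a lower ratio.

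Among the serum amyloid A genes, which encode small lipoprotein-bound proteins of the acute phase, Saa3 had nearly all of the signal. Saa3 (chromosome 7, 53967368 to 53971046, mm9), the form made mainly outside the liver in mice, had 0.816 FPKM in WT and 150.2 in MD1, a 184.1-fold difference with a log2 ratio of 6.38. It went from rank 11670 to rank 464 of 22691 genes by level, and its log2 ratio ranked 2 of 11399, after the ribosomal protein gene Rpl10. Saa1 (53995869 to 53998350) and Saa2 (54007203 to 54009684), the liver forms on the same chromosome, were listed at 0 in both groups, as were 4469 genes in all. Saa4, a form of the same cluster that is not strongly induced, had 0.00655 and 0.0101 FPKM. The longest reading frames of Saa1 and Saa2 were 95.1% identical, so the table's 0 for these genes is uncertain, since reads shared by near-identical copies can be dropped or split in counting. Those of Saa3 were 74.5% identical to Saa1 and 72.9% to Saa2. Whether reads of Saa1 or Saa2 entered the Saa3 value was not tested.

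Lcn2 (chromosome 2, 32240157 to 32243259), the gene of lipocalin-2, which binds bacterial iron carriers, was at 0.0736 FPKM in WT and at 2.68 in MD1. The plain ratio was 36.5 and the log2 ratio 1.78, with a WT value close to 0 on which the plain ratio rests. Hp (chromosome 8, 112099028 to 112103072), the gene of the haemoglobin-binding protein haptoglobin, had 0.278 and 1.31 FPKM, or 4.72-fold, below the minimum of 1 FPKM on average. C3 (chromosome 17, 57343396 to 57367559), which encodes the central protein of the complement cascade, had 0.549 and 1.58 FPKM. Its plain ratio was 2.88 and its log2 ratio 0.74, so it passed 2-fold on the plain scale but not after 1 was added. With a pseudocount of 0.1, 4 of 7 measured genes were at least 2-fold higher, against 2.27% of all genes, and with none the same number, against 2.48%. Without the minimum it was 3 of 8 (0.976% of all genes), with a minimum of 5 FPKM 2 of 5 (1.11%) and with quantile normalization 3 of 7 (1.52%).

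In WT the genes followed the order Lif, Socs3, Il11, Il6, Saa3, C3, Hp and Lcn2 by FPKM, and in MD1 Saa3, Il6, Lif, Socs3, Il11, Lcn2, C3 and Hp. Without values per library, it cannot be said which neighbours in these orders differ beyond their spread. Lif, Socs3 and Il11 kept their order and lay within 4.43 to 8.80 FPKM in both groups, while Saa3 and Il6 moved above them and Lcn2 above C3 and Hp.

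**Figure D2:**
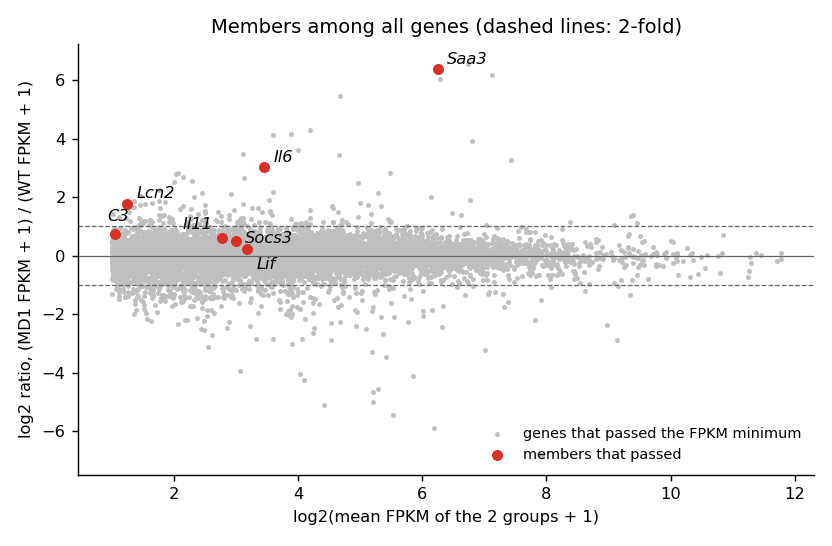
Each grey dot is 1 of the 11399 measured genes, with the log2 of the mean FPKM + 1 on the x axis and the log2 ratio of MD1 over WT on the y axis; red dots are the 7 measured genes described here. Saa3 at 6.38 and Il6 at 3.03 lie far above the dashed 2-fold line, while Lif, Socs3, Il11 and C3 lie between 0.23 and 0.74.

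The pairs of values nearest to Saa3, by Euclidean distance of log2(FPKM + 1) over the 2 group means, were those of the neutrophil chemokine gene Cxcl5 (1.33 and 152.1 FPKM, distance 0.360) and of the ribosomal protein genes Rpl10 and Rpl24 (0.571 and 1.37). The values of Rpl10 and Rpl24 are uncertain, as ribosomal protein genes have near-identical copies. Nearest to Il6 were Serpinb2, a protease inhibitor gene (1.40 and 14.1 FPKM), Klra18 (1.44 and 28.5) and the interferon-induced Isg15 (1.86 and 11.3). Nearest to Lcn2 were the lectin gene Clec4n (0.0911 and 3.02), Pcdha10 (0.207 and 2.81) and the protease inhibitor gene Slpi (0.224 and 2.88). With 2 values per gene, such likeness is a description of level and difference only.

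The genes around these loci were read for comparison. Within 100 kb of any of the 10 genes lay 55 other genes, 38 of them measured, and of these 23 had a log2 ratio above 0. None of the 38 passed 2-fold upwards and 2 passed it downwards, numbers too small to set against the 1.39% and 2.81% of all genes. Tph1, a serotonin synthesis gene 39.5 kb from Saa3, had 50.3 FPKM in WT and 8.74 in MD1 (log2 ratio -2.40), and Cox6b2, 19.3 kb from Il11, had 13.02 and 3.62 (-1.60). Saal1, 1.35 kb from Saa3, had 3.23 and 3.88 FPKM. Tyms, 38.2 kb from Il6, had 8.39 and 14.3 FPKM, the highest log2 ratio of the 38 at 0.70. Around Lcn2, the flanking genes 1110008P14Rik and Ptges2 had log2 ratios of 0.22 and 0.37. Txnl4b and Dhodh beside Hp had -0.14 and 0.27, Pgs1 beside Socs3 had 0.37 and Gpr108 beside C3 had -0.35. Other nearest genes lay under the minimum (Tha1 beside Socs3, Osm and Hormad2 beside Lif, Fam71e2 and Tmem190 beside Il11, Tnfsf14 beside C3), and the nearest gene on the other side of Il6, Dnajb6, was 226.7 kb away at 0.31. No other gene of the table overlapped any of the 10 genes.

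**Figure D3:**
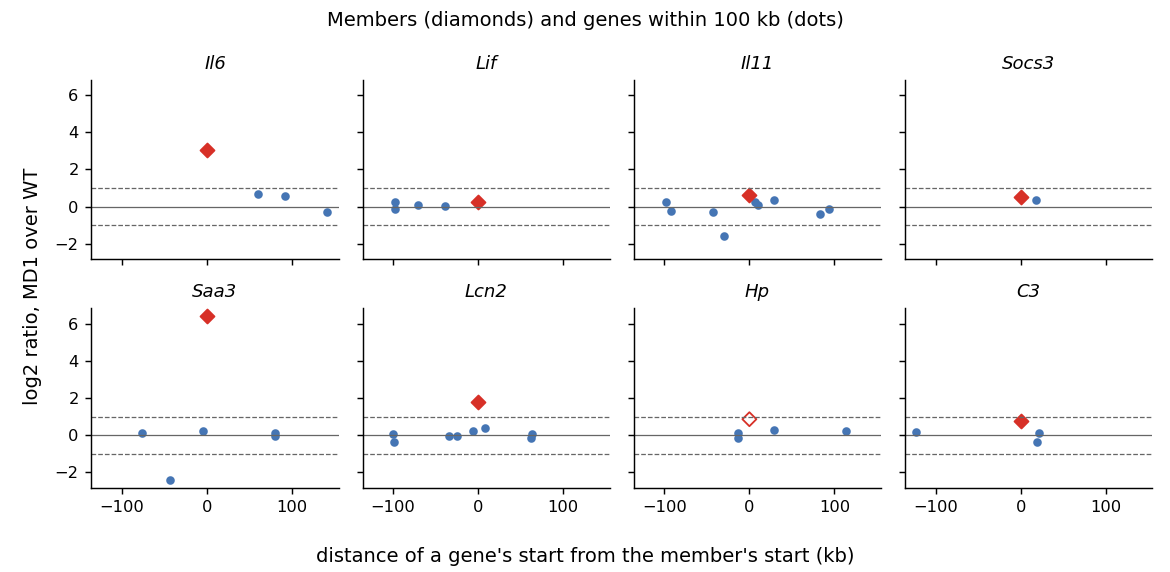
Log2 ratio of MD1 over WT against the distance in kb between gene starts, 1 panel per gene, with the gene as a diamond (open for Hp, which was not measured) and measured genes within 100 kb of its span as dots. The diamonds of Saa3, Il6 and Lcn2 stand above the dashed 2-fold line and none of the dots does; Tph1 is the low dot beside Saa3 at -2.40. Saa1 and Saa2 share the neighbourhood of Saa3 and have no panel.

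The receptors of the family included 3 with a log2 ratio above 0 and 3 below. None of 6 measured receptor genes of 8 was 2-fold higher or lower, and their median log2 ratio was -0.0031. Il6st, which encodes gp130, had 51.4 FPKM in WT and 54.6 in MD1, and the oncostatin M receptor gene Osmr had 21.6 and 20.2. The subunits that bind the 3 cytokines themselves were lower in level, with Il6ra at 1.16 and 1.62 FPKM, Lifr at 3.43 and 1.87 and Il11ra1 at 8.49 and 6.88. Among 10 measured Janus kinase and STAT genes of 11, none passed 2-fold either (median -0.094), with Jak1 at 60.9 and 56.8 FPKM and Stat3 at 45.7 and 33.9. The negative regulators other than Socs3 had 13 measured genes of 14, none past 2-fold and a median of 0.11, with the phosphatase gene Ptpn11 at 56.6 and 59.8 and Pias2 at 25.3 and 27.2. Of the 9 other cytokines of the family in the table, 3 were measured and none passed 2-fold on the log2(FPKM + 1) scale. Ctf1, the cardiotrophin-1 gene, was lower, at 3.61 and 1.41 FPKM (log2 ratio -0.93), and its plain ratio of 0.392 lay past 2-fold. The cytokine gene Clcf1 had 16.2 FPKM in WT and 22.2 in MD1, above the level of Lif in each group.

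Genes known as targets of STAT3 went both ways. Of 16 measured genes of 17, 1 passed 2-fold upwards (1.39% of all measured genes) and 1 downwards (2.81% of all). The median log2 ratio was 0.057. The higher gene was Bcl3, a nuclear cofactor of NF-kB (2.84 and 8.02 FPKM, log2 ratio 1.23), and the lower one the adhesion molecule gene Icam1 (7.54 and 3.14, -1.05).

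Among 18 measured NF-kB and C/EBP pathway genes of 19, 11 had a log2 ratio above 0 and 7 below (median 0.31). The lowest was Tnip1, at 14.1 FPKM in WT and 10.2 in MD1 (log2 ratio -0.44), named after its values were seen. Of the 18, 3 were at least 2-fold higher (1.39% of all measured genes) and none at least 2-fold lower (2.81% of all). All 3 encode inhibitors or feedback regulators induced by NF-kB. Nfkbia, encoding IkB alpha, had 13.6 FPKM in WT and 31.5 in MD1 (log2 ratio 1.16), Tnfaip3, encoding A20, had 5.47 and 13.2 (1.13), and Nfkbiz, whose product also promotes Il6 and Lcn2 transcription, had 10.9 and 23.4 (1.04). Cebpd, which encodes the acute-phase regulator C/EBP delta, lay just under the bound at 10.5 and 21.8 FPKM (log2 ratio 0.99) and was 2.07-fold higher on the plain scale. Of the 18 genes of the list on cytokines that induce acute-phase genes, 13 were measured and none passed 2-fold, with a median of 0.16. In it, the tumour necrosis factor receptor gene Tnfrsf1a had 71.5 and 64.6 FPKM and the IL-33 receptor gene Il1rl1 45.8 and 78.5. The classic inducers Il1a, Il1b and Tnf, named after their values were seen, were under the minimum: Il1a had 0.0276 and 0.541 FPKM, Tnf 0.368 and 0.101, and Il1b was listed at 0 in WT and had 0.0712 in MD1.

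The other acute-phase genes went both ways, and most were hardly expressed. Of 28, 20 had under 1 FPKM in both groups, 7 of them listed at 0 in both. Of the 8 measured, 2 passed 2-fold upwards (1.39% of all measured genes) and 1 downwards (2.81% of all). Their median log2 ratio was 0.40, while without the FPKM minimum the median was 0.0076. Ptx3, encoding the soluble pattern receptor pentraxin 3, had 27.2 FPKM in WT and 112.2 in MD1 (log2 ratio 2.004), and the serpin gene Serpina3g had 2.64 and 6.86 (1.11). Lbp, encoding lipopolysaccharide-binding protein, had 2.13 and 0.415 (-1.14). In the complement cascade of C3, 6 of 13 measured genes of 25 had a log2 ratio above 0 and 7 below (median -0.21). The highest was Cfp (1.75 and 4.02 FPKM, log2 ratio 0.87), named after its values were seen, and none passed 2-fold upwards, as C3 itself did not on this scale. Of the 13, 3 were at least 2-fold lower, against 2.81% of all measured genes. They included Cd55 (19.7 and 7.85 FPKM, log2 ratio -1.22) and Serping1 (8.61 and 3.17, -1.21), which both restrain complement or its activation. The difference between C3 and the list was not tested.

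**Figure D4:**
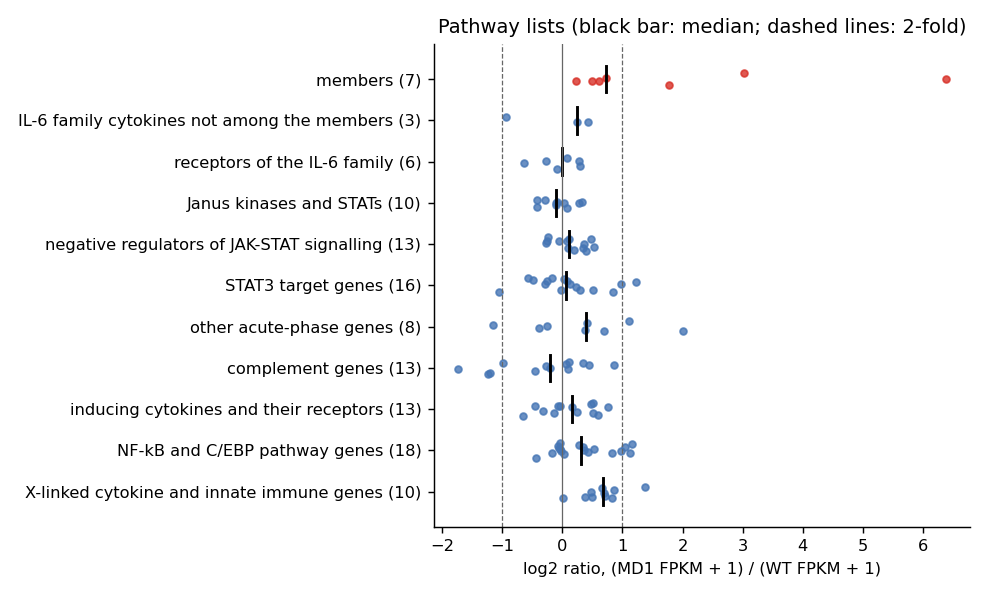
Log2 ratios of MD1 over WT for the measured genes of each list, 1 dot per gene, with the number of genes in brackets, the median as a black bar and 2-fold as dashed lines. The medians run from -0.21 for the complement genes to 0.74 for the genes described here, and the receptors sit at -0.0031. The genes described here were chosen on this contrast, and Saa3, Lcn2 and C3 passed the minimum only through MD1. Nothing is therefore read from their median beside those of the lists.

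Markers of cells that could carry acute-phase RNA were also read. Of 8 hepatocyte markers, 7 had under 1 FPKM in both groups and 1 of these was listed at 0 in both. The albumin gene Alb had at most 0.00486 FPKM, and the list summed to 2.07 in WT and 1.59 in MD1, most of it Apoa2 (1.57 and 1.04), followed by Apoa1 (0.222 and 0.244). Of 7 neutrophil markers in the table, 6 had under 1 FPKM in both groups, and the sum was 0.428 in WT and 3.52 in MD1. That sum was carried by S100a8, at 0.315 and 3.47 FPKM, a gene not confined to neutrophils. Csf3r, next in level, had 0.107 and 0.00604, Elane and S100a9 were listed at 0 in both groups, and Mpo, the gene of a granule enzyme that defines the lineage, had at most 0.00526. The 8 macrophage markers summed to 113.5 in WT and 101.97 in MD1, led by Lyz2 (99.4 and 86.8) and Cd68 (9.21 and 9.82). Most of that sum was Lyz2, and lower members went both ways, with Emr1 at 0.910 and 1.42, Itgam at 0.470 and 1.39 and Aif1 at 0.4999 and 0.128 FPKM. The part of such cells in the values of the acute-phase genes was not tested. The 5 endothelial markers summed to 7.80 and 4.93, led by Kdr (3.26 and 3.02) and Emcn (4.12 and 1.58). The other 3 had under 1 FPKM in both groups and went both ways. Pecam1 had 0.0758 and 0.117 FPKM, Cdh5 0.0455 and 0.153 and Tek 0.301 and 0.0589. The 6 epithelial markers summed to 73.4 and 83.1, most of it the keratin genes Krt19 (51.4 and 56.4) and Krt18 (17.1 and 22.1). These keratin genes alone were higher in MD1. Krt8 (2.57 and 2.41 FPKM), Cdh1 (0.143 and 0.115), Epcam (0.182 and 0.172) and Cldn4 were all slightly lower there, so the list went both ways. All 10 markers of fibroblasts, the labelled cell type, were measured, with a sum of 6056 and 5568 FPKM, Vim at 2790 and 2802 and Col1a1 at 1688 and 1081. In this list 1 gene, Fn1 (370.2 and 940.4), was at least 2-fold higher (1.39% of all measured genes). Another 1, Col3a1 (188.9 and 78.7), was at least 2-fold lower (2.81% of all).

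X-linked genes are the only ones with values per library. Their allele-specific reads, which tell JF1 from C57BL6/J, totalled 521768 to 806626 per library. Among 17 X-linked genes of cytokine signalling and innate immunity, 12 had a JF1 share in all 4 libraries and 20 or more reads per library on average. In all 12 the lower MD1 library had a larger share than the higher WT library, as in 77.5% of 391 such X-linked genes. The median difference in share was 30.6 points, against 11.4 over the 391 genes, and a difference between the list and other X-linked genes was not tested. Each gene had p = 0.33 in an exact permutation test (two-sided), before and after Benjamini-Hochberg adjustment over the 12 genes, the smallest that 2 libraries against 2 allow. No label says that replicates came from separate fetuses, so the spread between them may be technical.

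Several of these genes act beside the cytokines and acute-phase proteins above. Timp1, a metalloproteinase inhibitor gene induced by IL-6 family cytokines, had JF1 shares of 0.0147% and 0.0776% in the WT libraries and 40.8% and 36.1% in the MD1 libraries. The means were 0.0461% ± 0.0445 and 38.4% ± 3.29 (SD, n = 2), with 13268 and 40878 reads, and its FPKM was 370.8 in WT and 965.7 in MD1. On the log2(FPKM + 1) scale it was the only 1 of 10 measured genes of this list at least 2-fold higher, with a log2 ratio of 1.38. Of all measured X-linked genes, 4.77% were. On the plain scale Cfp was too (2.29-fold). Ikbkg, whose product NEMO is needed by the kinase that activates NF-kB, had shares of 0.191% and 0.114% in the WT libraries and 49.9% and 49.6% in MD1, with 5.89 and 11.3 FPKM. Irak1, a kinase of IL-1 and Toll-like receptor signalling, had 0.289% and 0% in the WT libraries and 44.8% and 41.2% in MD1, with 21.98 and 36.4 FPKM. In all 3 genes the groups lay far apart relative to the spread within them.

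Cfp encodes properdin, which stabilises the enzyme that cleaves C3. It had 0 of 48 JF1 reads in WT, which allows a share of up to 6.25%, and 26.8% and 23.8% in the MD1 libraries. Xiap, an inhibitor of cell death that also serves NF-kB signalling, had 39.2% ± 0.408 in MD1 and Tab3, an adaptor of the TAK1 kinase, 23.1% ± 0.763, from 0.268% ± 0.197 and 0.345% ± 0.488 in WT (SD, n = 2). The cytokine receptor gene Il2rg had 28.9% ± 0.378 in MD1, the RNA sensors Tlr13 and Tlr7 56.8% ± 2.68 and 32.3% ± 11.7, and Cybb, an oxidase subunit, 7.82% ± 0.530 (SD, n = 2). In WT these 4 had 0 JF1 reads of 119, 116, 49 and 167, which allows up to 2.52%, 2.59%, 6.12% and 1.80%. The transcription factor gene Elf4 was at 11.6% ± 0.960 in MD1, against 0.414% ± 0.135 in WT (SD, n = 2). Il13ra1, a receptor of IL-4 and IL-13, was lowest in MD1 at 2.32% ± 0.365 (SD, n = 2), from 0 of 1576 reads in WT, which allows up to 0.190%. These limits cover counting error only. By FPKM, all 10 measured genes of this list had the higher value in MD1, as did 269 of all 398 measured X-linked genes. The median log2 ratio was 0.68 for the list and 0.22 over the 398 genes, a difference that was not tested. Of these 10, Tlr13 (0.753 FPKM in WT and 1.47 in MD1) passed the minimum only through MD1, so it had to be higher there. Tlr7, under the minimum, was slightly lower in MD1 (0.525 and 0.515).

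**Figure D5:**
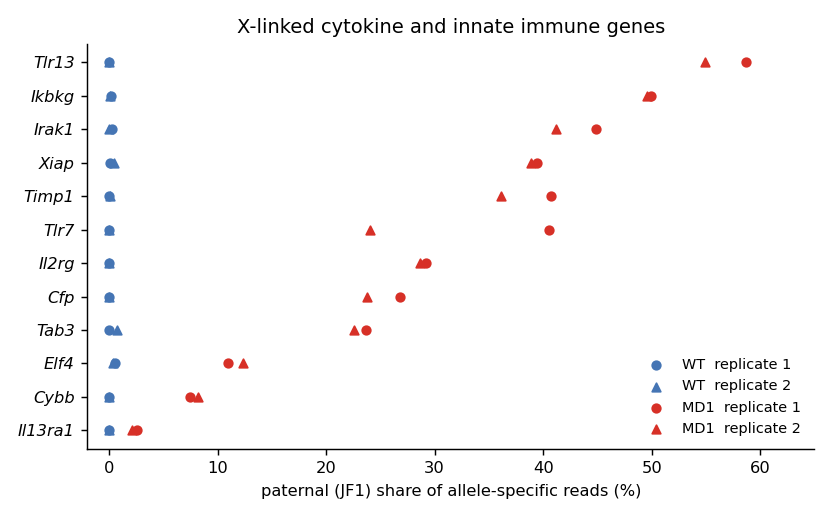
JF1 (paternal) share of allele-specific reads in percent for 12 X-linked genes, 1 point per library, with WT in blue and MD1 in red and the replicate shown by the shape. All WT points lie at 0.691% or less, while MD1 points run from 2.07% for Il13ra1 to 58.7% for Tlr13.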

How the data were processed

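One table of 22691 genes was used. The authors deposited FPKM as 1 mean per genotype. For X-linked genes they also deposited allele-specific read counts and the JF1 share as a fraction, per library and per group. The submitters' processing notes name mm9, Cuffdiff and Cufflinks 2.2.1 without saying which step each served. The aligner, annotation and strand setting were not given in the sources used here.

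The planned limma test needed FPKM per library and could not be fitted, so FPKM ratios have no p-value. Ratios used a pseudocount of 1, and genes needed a mean FPKM of 1 or more and values above 0 in both groups. JF1 counts were recovered as share times reads, and shares were compared by an exact two-sided permutation test (SciPy 1.17.1). Only the code of the FPKM ratios and of the quantile normalization was tested, on set values without noise. Gene starts, counted from 0 in the table, were moved up by 1. Reading frames of the Saa genes came from GENCODE transcripts (GRCm38), aligned with Biopython 1.88. In allele-specific reads of X-linked genes, replicates within WT and within MD1 differed beyond sampling noise (chi-square per degree of freedom 88.0 and 79.2). This could not be read for autosomal FPKM.

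The 10 genes, the 10 pathway and 6 marker lists and the motif letters were chosen with earlier results of these data known. Named from each list were up to 4 genes at least 2-fold apart with the largest log2 ratios or, failing those, the 2 highest by mean FPKM. For marker lists the 2 highest were named. Also named were each gene's nearest neighbours, the 3 genes with the nearest values to each of the 3 largest ratios, and X-linked list genes with shares in all libraries; genes outside this rule were chosen after their values were seen. A few genes that the rule takes are not reported here. Alternatives were another pseudocount, FPKM minimum, quantile normalization, read minimum, pooled reads, replicates left out and a replicate block.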

Additional observations from a re-analysis of the deposited data

How the results depend on the processing

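The choice of pseudocount mattered most. The median log2 ratio of the measured members was 0.74 as reported, 1.37 with a pseudocount of 0.1 and 1.52 with none, an alternative added after seeing the data. Their number at least 2-fold higher was 3 as reported, 4 under both of these settings, 3 without the FPKM minimum or with quantile normalization and 2 with a minimum mean FPKM of 5, which Lcn2 and C3 did not reach. The log2 ratio with a pseudocount of 0.1 was 7.36 for Saa3, 4.003 for Lcn2, 3.64 for Il6 and 1.37 for C3. List genes at least 2-fold lower numbered 5 as reported and 3 with a minimum of 5 FPKM, where fewer genes are tested. The epithelial marker median was 0.060 as reported and -0.012 without a minimum. The median difference in paternal share of the X-linked list was 26.3 to 34.2 points with 1 library left out, values with no test. With a replicate block it was 30.6 (exact sign-flip p = 0.5, the smallest for 2 pairs). The labels do not say whether same-numbered libraries share more than a number. Deviations of their X-linked allele-specific read numbers from the group means correlated at 0.39 and those of the shares at 0.19. Whether such libraries share a batch was not tested. FPKM could be neither paired nor recomputed without a library. Depth behind FPKM is unknown, so the low WT values of Lcn2, Hp and C3 have no error.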
